A study of Bos taurus with 8 samples.

Results

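The genes described here are a set of immediate early response genes measured in the rumen papillae of dairy cows. The set had 10 listed genes: FOS, FOSL2, JUN, JUNB, EGR1, ATF3, IER2, IER3, MYC and DUSP1. They were chosen by name, as classic members of the class, and a gene counted as measured when a probe of the array carried a RefSeq accession that the bovine gene table pairs with its symbol. This held for 8 of the 10 genes, out of 7788 gene symbols found on the array in this way. EGR1, a zinc finger transcription factor, and IER3, a gene linked to cell survival under stress, had no such probe and were not measured here. Each of the other 8 had 1 probe, and the scanner software's own test placed that probe well above background on every one of the 8 arrays.

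Immediate early response genes are switched on within minutes of a growth factor, a cytokine, mechanical stress or another outside signal, from transcription factors that already lie in the cell, so that no new protein has to be made first. Their transcripts are short-lived, and many of them code for transcription factors, above all the FOS, JUN and ATF proteins that pair with each other as the AP-1 factor and pass the signal on to slower genes. Other members are brakes on the same kinases that switched them on. In a stratified epithelium such as that of the rumen, AP-1 and MYC are known for their part in the balance between proliferation and differentiation. Because the response comes and goes quickly, a sample taken at 1 time shows the level at that moment only.

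The samples were rumen papillae of 4 female Holstein cows, each with a rumen cannula, and each cow was sampled on both diets in a crossover. The LC group received 40% concentrate in the diet and the HC group 70%, and all samples were taken on day 21 of a period and 4 h after the morning feeding. In period 1, cows 1 and 2 were on LC and cows 3 and 4 on HC, and in period 2 the diets were exchanged, so that each diet has 4 arrays and each cow has 2. The tissue was whole papillae from the ventral sac, washed in cold buffer and frozen, and the age of the cows is not in the sources used here. Since the tissue is a mixture of cells, fewer cells of a type and less RNA per cell cannot be told apart. Each slide held the 4 arrays of 1 period, so period and slide cannot be told apart. Cows are named as on their scanner files. In the authors' normalized table the names of cows 1 and 2 are exchanged on both diets, so which of these animals is which is unsettled, while the diet and the pairing of every array stand.

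The signals were comparable between arrays, with 76.9 to 81.2% of the 21475 probes well above background, a median intensity of 92.1 to 132 before normalization and no saturated spot. Pearson's r between any pair of arrays, across probes, was 0.985 to 0.994. Values below are normalized log2 signals, in which a difference of 1 is a doubling, and they compare arrays for 1 probe and never 1 probe with another. Of the epithelial markers, KRT14, KRT6A and EPCAM passed the background test on all 8 arrays, while the probe of TP63 passed on none. Markers of stroma (7 of 7 on the array), smooth muscle (5 of 5) and leukocytes (5 of 6, with ITGAM well above background on no array) also passed that test on all 8 arrays.

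Among the 8 measured genes, none differed between the diets by the call used here, a fold of at least 1.5 with an unadjusted p under 0.05 in limma, against 0.922% of all 21475 probes and 0.274% of the 16030 that, like these genes, passed the background test on all 8 arrays. The share over all probes moved with the processing, from 198 probes to 8 with normexp background correction and 415 in the deposited table. At an unadjusted p under 0.05 and any fold, 1 of the 8 passed, FOSL2, against 3.65% of all probes in the same fit. With cow as a random block DUSP1 passed as well (limma p of 0.0498). That fit called more probes for diet, 290 against 198, and its share of all probes under 0.05 is not given here. The log2 difference of HC minus LC had a median of 0.08 over the 8 genes and ran from -0.08 in FOS to 0.40 in FOSL2, with 5 genes higher and 3 lower. After Benjamini-Hochberg adjustment over all probes the limma p was 1.00 for each of the 8, and the smallest over all probes was 0.412. What set the genes apart from each other was the spread between arrays, which was wide in ATF3 and FOS, moderate in JUN and FOSL2, and small in the other 4.

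**Figure D1:**
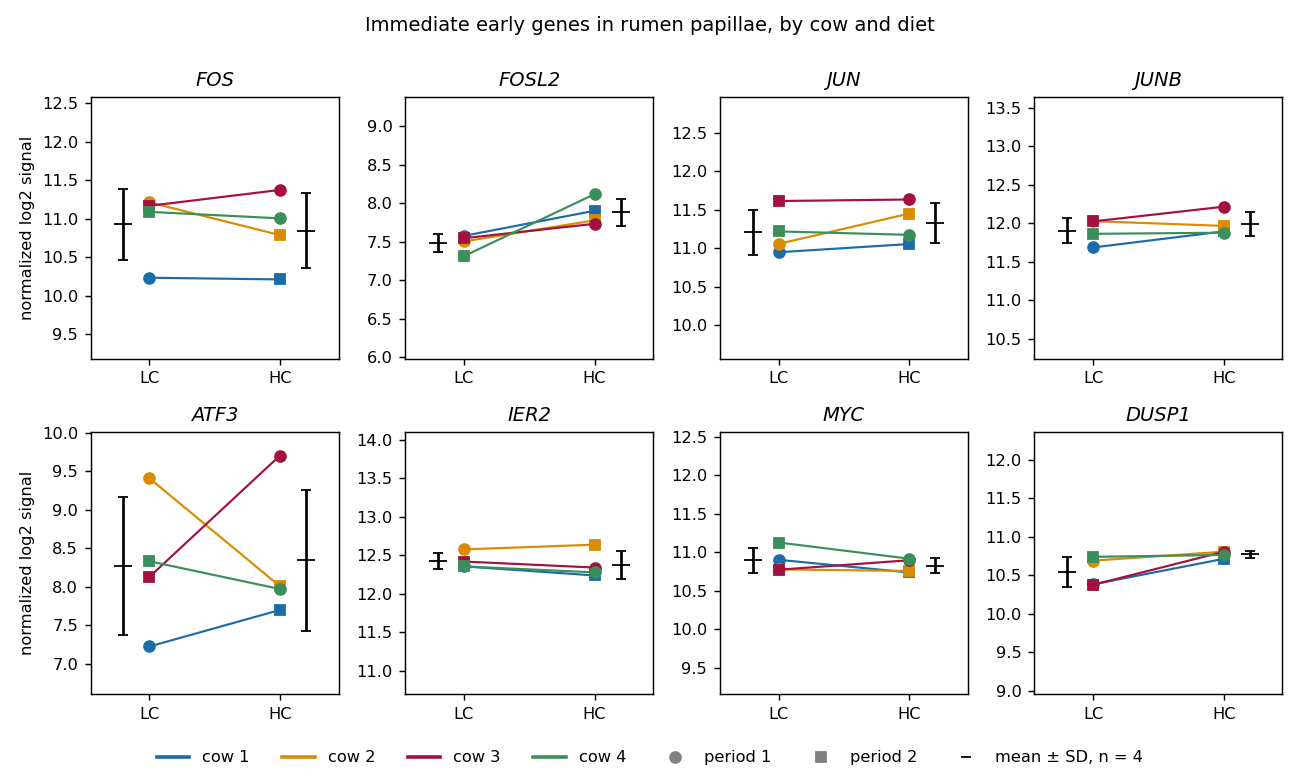
Normalized log2 signal of the 8 measured genes (y axis, the same span in each panel) on LC and HC (x axis), with a line for each of the 4 cows, circles for period 1 and squares for period 2, and bars for the mean ± SD of 4 arrays. FOSL2 was higher on HC in all 4 cows, ATF3 ran from 7.22 to 9.70 with cows moving in both directions, and cow 1 lay lowest for FOS on both diets.

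FOS (NM_182786) codes for the founding member of the FOS family, which binds DNA as AP-1 once it has joined a JUN protein. Its normalized log2 signal in cows 1 to 4 was 10.23, 11.21, 11.17 and 11.09 on LC, and 10.21, 10.79, 11.37 and 11.00 on HC. Cow 1 was far below the other 3 cows on both diets, and the 2 diets overlapped almost fully. The mean was 10.92 ± 0.46 (SD, n = 4) on LC and 10.84 ± 0.49 (SD, n = 4) on HC. The log2 difference of HC minus LC was -0.08 (SE 0.25), with a limma p of 0.756 and an exact permutation p of 0.743, and the 95% interval in folds ran from 0.620 to 1.44. Within the cows, HC minus LC was -0.02, -0.43, 0.21 and -0.08.

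The sign of the FOS difference depended on the period. Within period 1, where the HC arrays were those of cows 3 and 4, HC minus LC was 0.47 (limma p of 0.236), and within period 2, where they were those of cows 1 and 2, it was -0.63 (limma p of 0.125). Since each pair of cows had its diets in opposite order, this gap between the periods cannot be told apart from that between cows 1 and 2 and cows 3 and 4. The latter contrast sets 2 cows against 2, and its limma p takes the 2 arrays of a cow as independent. That p therefore does not measure the spread between animals. The mean of cows 1 and 2 minus that of cows 3 and 4 was -0.55 for FOS, with a limma p of 0.0705 over the 8 arrays. It passed neither threshold with all arrays, while without the LC array of cow 2 it was -0.79 with a p of 0.00836, past both (adjusted p = 0.450, Benjamini-Hochberg).

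FOSL2 (NM_001192950) codes for FRA2, a FOS family partner in AP-1 that lacks the strong activation domain of FOS and accumulates later and for longer after a signal. In cows 1 to 4 its log2 signal was 7.58, 7.50, 7.54 and 7.31 on LC, and 7.90, 7.78, 7.73 and 8.12 on HC. The lowest HC array, that of cow 3, lay above the highest LC array, that of cow 1, so the groups did not overlap. The mean was 7.48 ± 0.12 (SD, n = 4) on LC and 7.88 ± 0.17 (SD, n = 4) on HC.

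The log2 difference of HC minus LC in FOSL2 was 0.40 (SE 0.12), a fold of 1.32 with a 95% interval of 1.07 to 1.62, and its limma p was 0.0163. It was below the fold of 1.5 and was not called. In the exact two-sided permutation test over arrays the p was 0.0286, the smallest that 4 arrays against 4 can give. Neither that test nor the limma fit uses the pairing by cow. With cow as a replicate block the limma p was 0.0354. An exact test that exchanged the diets within the 4 cows was added after the values were seen. It gave 0.125, the smallest it can give and above 0.05. Of all 21475 probes, 0.922% had the HC arrays all above the LC arrays and 1.60% had groups that did not overlap in either direction, and FOSL2 was the 1 of the 8 genes that did so. All 4 of 4 cows had more FOSL2 signal on HC, with differences of 0.33, 0.27, 0.19 and 0.80. HC minus LC was 0.39 within period 1 (limma p of 0.0653) and 0.41 within period 2 (limma p of 0.0535), so the size was nearly the same on both slides.

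The FOSL2 probe had an intensity of 154 to 247 before normalization, and its duplicate spots on an array differed by up to 0.46 on the log2 scale. As each array was left out in turn, the log2 difference ran from 0.30 to 0.49 and the limma p from 0.00640 to 0.0516, above 0.05 without cow 2 on LC (0.0503), cow 4 on LC (0.0505) or cow 1 on HC (0.0516). After normexp background correction the difference was 0.20, with a limma p of 0.0271.

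JUN (NM_001077827) codes for c-Jun, the AP-1 subunit that can pair with itself as well as with FOS and ATF proteins. The log2 signal on LC was 10.95, 11.06, 11.62 and 11.22 in cows 1 to 4, and on HC it was 11.06, 11.45, 11.64 and 11.18. Cow 3 was highest on both diets, and cow 1 was lowest on both. The mean was 11.21 ± 0.29 (SD, n = 4) on LC and 11.33 ± 0.26 (SD, n = 4) on HC. The log2 difference of HC minus LC was 0.12, with an exact permutation p of 0.600 (0.498 from limma) and a 95% interval of 0.823 to 1.43 in folds. It was 0.40 within period 1 and -0.16 within period 2.

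JUNB (NM_001075656) codes for the JUN family member that is a weaker activator than c-Jun and often holds proliferation back. Its LC arrays had log2 signals of 11.68, 12.03, 12.02 and 11.86 in cows 1 to 4, and its HC arrays 11.89, 11.96, 12.21 and 11.88. The highest value was on the HC array of cow 3 and the lowest on the LC array of cow 1, with the other 6 arrays between 11.86 and 12.03. The log2 difference of HC minus LC was 0.09, with an exact permutation p of 0.486 (0.517 from limma) and a 95% interval of 0.857 to 1.32 in folds.

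ATF3 (NM_001046193) codes for a transcription factor of the ATF and CREB family that can pair with JUN proteins and is known as a stress-induced repressor. On LC the signal was 7.22, 9.41, 8.13 and 8.33 (log2) in cows 1 to 4, and on HC it was 7.70, 8.01, 9.70 and 7.97. One array of each diet stood above the rest, that of cow 2 on LC and that of cow 3 on HC, both in period 1, while the other array of each of these cows lay among the remaining 6. The span from lowest to highest array was 2.48, a fold of 5.58.

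The ATF3 mean was 8.27 ± 0.90 (SD, n = 4) on LC and 8.34 ± 0.92 (SD, n = 4) on HC. HC minus LC was 0.07 (SE 0.57), with an exact permutation p of 0.943 (0.903 from limma), and the 95% interval ran from 0.405 to 2.73 in folds, so that even a change past 1.5-fold in either direction lies within it. Within the cows the difference was 0.47, -1.40, 1.58 and -0.36, with 2 cows higher on HC and 2 lower. The duplicate spots of the probe differed by at most 0.13 on any array, against 2.48 between arrays. Intensities before normalization were 161 to 849.

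The heat shock list, kept as a check on handling of the tissue, moved with ATF3 in part. HSPH1, a chaperone of the HSP110 family, had its highest log2 signals on the same arrays, 12.24 for cow 2 on LC and 12.42 for cow 3 on HC, against 10.97 to 11.87 on the other 6. DNAJB1, an HSP40 cochaperone, was also highest there, at 12.47 and 12.62, as was HSPA8, a constitutive HSP70 protein, at 13.77 and 13.63. These 2 were nearly as high for cow 2 on HC, at 12.42 and 13.61, where ATF3 was at 8.01. HSPA1A and BAG3 were high for cow 2 on LC (11.84 and 11.84) and not for cow 3 on HC (11.21 and 11.45). All 5 heat shock genes with a probe, of 6 listed, passed the background test on each of the 8 arrays, and the log2 of their summed level was 14.21 to 14.96 on LC and 14.11 to 14.85 on HC. Their part in the ATF3 values was not tested.

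IER2 (NM_001075871), a nuclear protein named for its early induction, was among the steadiest of the genes. In cows 1 to 4 the log2 signal was 12.36, 12.58, 12.42 and 12.36 on LC, and on HC it was 12.24, 12.64, 12.34 and 12.28. Cow 2 was highest on both diets. HC minus LC was -0.05, with an exact permutation p of 0.543 (0.676 from limma), and the 95% interval of 0.787 to 1.18 in folds lay within 1.5-fold in both directions.

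MYC (NM_001046074) codes for a transcription factor that drives growth and cell cycle genes together with its partner MAX. The MYC signal on LC was 10.90, 10.78, 10.78 and 11.13 (log2) in cows 1 to 4, and on HC it was 10.74, 10.76, 10.90 and 10.92. The LC array of cow 4 was highest, and the other 7 arrays lay between 10.74 and 10.92. HC minus LC was -0.07, with an exact permutation p of 0.429 (0.550 from limma) and a 95% interval of 0.796 to 1.14 in folds.

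DUSP1 (NM_001046452) codes for a phosphatase that switches off p38, JNK and ERK, the MAP kinases upstream of the AP-1 genes. Across cows 1 to 4, the log2 signal was 10.38, 10.69, 10.38 and 10.74 on LC, and on HC it was 10.71, 10.80, 10.80 and 10.76. The 4 HC arrays lay close together, cows 1, 2 and 3 on LC lay below all of them, and the groups overlapped through the LC array of cow 4. The mean was 10.55 ± 0.19 (SD, n = 4) on LC and 10.77 ± 0.04 (SD, n = 4) on HC. HC minus LC was 0.23 (SE 0.12), a fold of 1.17 with a 95% interval of 0.949 to 1.44, and p was 0.118 from limma and 0.0571 in the exact permutation test over arrays, and 0.125 in the exact test within cows. With cow as a random block the limma p was 0.0498. That fit takes the same correlation between the 2 arrays of a cow, 0.384, for every probe, while the F test of cow gave DUSP1 a limma p of 0.513. The value was positive in 4 of 4 cows, at 0.33, 0.12, 0.43 and 0.02.

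**Figure D2:**
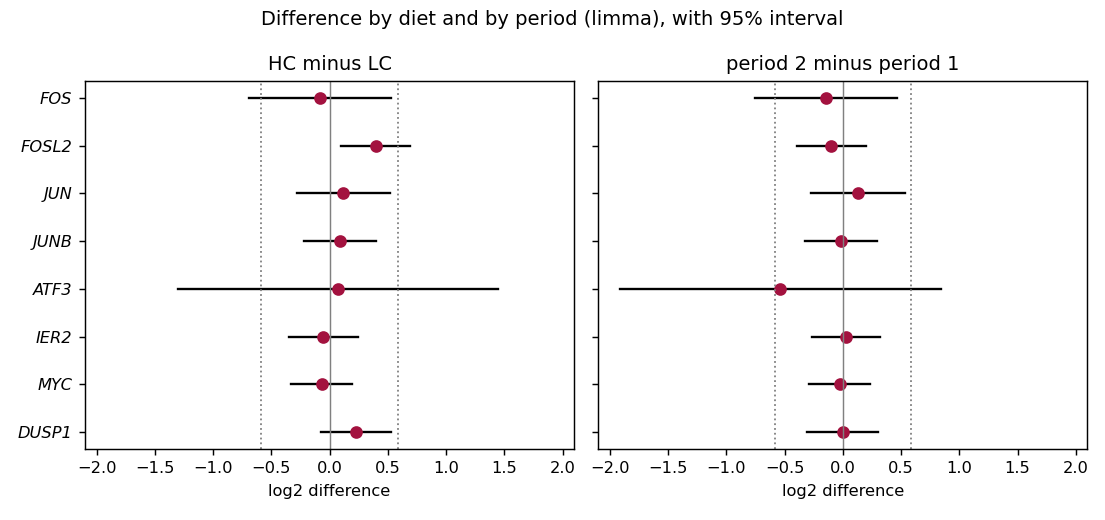
Difference of HC minus LC (left) and of period 2 minus period 1 (right) for the 8 genes, on the log2 scale (x axis), with the 95% interval from limma. Dotted lines mark a fold of 1.5 in either direction. Only the diet interval of FOSL2, 0.10 to 0.69, leaves out 0, and the intervals of ATF3 are the widest.

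The periods were compared in the same limma fit. None of the 8 was called for period, against 3.86% of all probes, and 0 of 8 had an unadjusted p under 0.05 from limma, against 12.3% of all probes. Of the 16030 probes that passed the background test on all 8 arrays, 69 were called higher in period 2 and 243 lower. An unadjusted p under 0.05 was reached by 1764 of these 16030. With only 8 genes, these counts say little about the set. The difference of period 2 minus period 1 ran from -0.54 in ATF3 to 0.13 in JUN, with a median of -0.02 over the 8 genes. ATF3 was 8.58 ± 1.18 (SD, n = 4) in period 1 and 8.04 ± 0.26 (SD, n = 4) in period 2 (exact permutation p of 0.400), so its spread lay in period 1, which held both of the high arrays and the lowest one. FOS differed by -0.14 and FOSL2 by -0.10, and in the other 5 genes the difference lay between -0.02 and 0.13. In the exact permutation test none of the 8 had periods that did not overlap, against 7.48% of all probes, and p ran from 0.400 to 0.943.

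For the contrast of cows 1 and 2 against cows 3 and 4, 0 of 8 genes were called with limma, against 2.93% of all probes, and 0 had an unadjusted p under 0.05, against 10.2%. Of the 16030 probes that passed the background test on all 8 arrays, 170 were called higher in cows 1 and 2 and 156 lower. Among the 8 genes the smallest p was that of FOS, given above, and these p-values take the 2 arrays of a cow as independent. No gene of the 8 had arrays that did not overlap between these pairs of cows, against 5.63% of all probes.

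**Figure D3:**
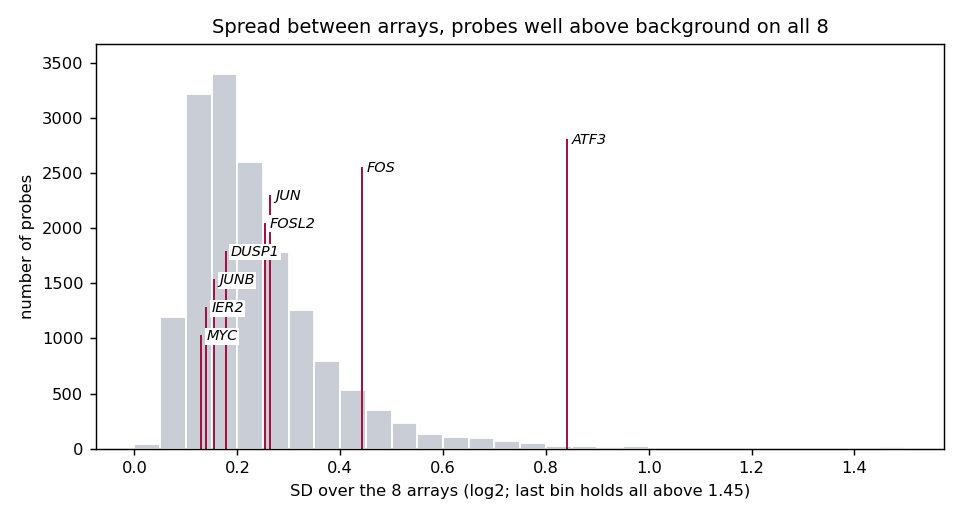
Number of probes (y axis) by the SD of their log2 signal over the 8 arrays (x axis), for the 16030 probes well above background on all 8, with a red line at the SD of each of the 8 genes. The height of a line has no meaning. ATF3 at 0.84 and FOS at 0.44 lie in the right tail, and the other 6 lie within the bulk of the probes.

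The spread between arrays, as the SD over all 8, was 0.84 for ATF3, wider than that of 99.1% of the 16030 probes that passed the background test on all arrays, and 0.44 for FOS, wider than that of 92.0%. JUN had an SD of 0.26 (above 68.6% of probes) and FOSL2 of 0.25 (above 65.9%). DUSP1 had 0.18, JUNB 0.15, IER2 0.14 and MYC 0.13, all below the median of 0.20 over those probes. The median over the 8 genes was 0.22, so the set as a whole lay near the middle of the array. From lowest to highest array, FOS spanned 2.24-fold, FOSL2 1.75-fold, JUN 1.61-fold and JUNB 1.44-fold, while DUSP1, IER2 and MYC spanned 1.31-fold to 1.35-fold.

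FOS and JUN had the smallest unadjusted p for a cow term among the 8 genes, and neither passed 0.05 after adjustment. The mean of the pair of arrays of a cow was 10.22, 11.00, 11.27 and 11.05 for FOS in cows 1 to 4, while the 2 arrays of 1 cow differed by 0.18 on average. For JUN the cow means were 11.00, 11.26, 11.63 and 11.20, and the arrays of 1 cow differed by 0.14 on average. With cow, diet and period fitted to all probes in limma, a term added after the values were seen, the F test of cow had an unadjusted p of 0.00893 for FOS (adjusted p = 0.196, Benjamini-Hochberg over all probes) and of 0.0344 for JUN (adjusted p = 0.279). These were 2 of 8 genes with an unadjusted p under 0.05 for cow, against 16.3% of all probes, and so few genes say little by this count. In FOS it was cow 1 that lay apart from the others. The 2 arrays of cow 2 differed by 0.39 in JUN.

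In ATF3 the spread lay within cows as much as between them. Its cow means had an SD of 0.65, while the arrays of 1 cow differed by 0.95 on average, and the F test of cow had a limma p of 0.250. FOSL2 was the opposite of FOS: its cow means had an SD of 0.05 against a mean difference of 0.40 within cows, all 4 in the direction of HC, and the p for cow was 0.924.

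**Figure D4:**
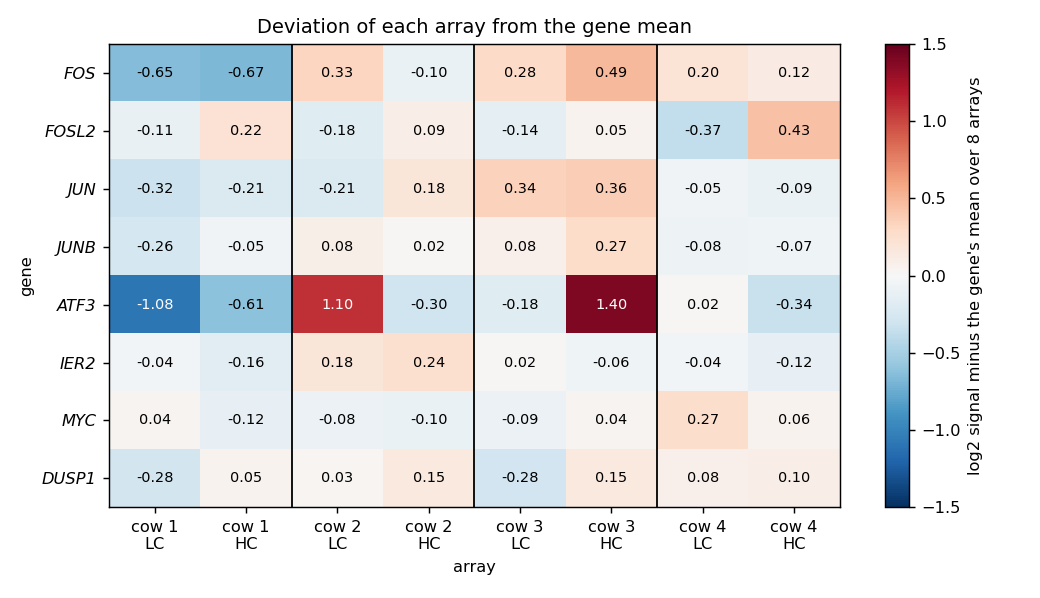
Deviation of each array from a gene's mean over the 8 arrays (colour and printed value, log2), with the 8 genes as rows and the arrays as columns, ordered by cow. The HC array of cow 3 is above the mean in 7 of 8 genes, and the LC array of cow 1 is below it in 7 of 8.

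Seen by array, the HC array of cow 3 was above a gene's mean in 7 of the 8 genes and was the highest of all arrays for 4 of them, FOS, JUN, JUNB and ATF3. The LC array of cow 1 was above the mean in 1 of 8 genes, and it was the lowest of all for JUN, JUNB and ATF3. The HC array of cow 1 was above the mean in 2 of 8 genes and lowest for FOS, IER2 and MYC. The median deviation from the gene means was 0.21 on the HC array of cow 3, -0.27 on the LC array of cow 1 and -0.14 on the HC array of cow 1. The share of probes well above background was 79.8, 81.2 and 77.4% on these 3 arrays, the highest of all 8 on the LC array of cow 1 and the lowest but one on the HC array of cow 1, and its part in these values was not tested.

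Across the 8 arrays, Pearson's r was 0.86 between JUNB and ATF3, 0.81 between FOS and ATF3, 0.76 between JUN and JUNB, 0.75 between FOS and JUNB, 0.63 between FOS and JUN and 0.43 between JUN and ATF3. FOSL2 ran apart from these, with r = -0.23 with FOS and -0.20 with ATF3, and so did MYC, with r between -0.38 and 0.23 for the other 7 genes. These correlations rest on 8 arrays from 4 cows, with a pair of arrays per cow, and are given as a description.

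Among the 6461 other genes that were named and above background on all arrays, the 5 whose profile over the 8 arrays was most like the mean standardised profile of the 8 genes were ABHD17B (r = 0.98), CRTC2 (r = 0.94), CCDC117 (r = 0.94), DMRTA2 (r = 0.93) and SLC26A3 (r = 0.93). ABHD17B had log2 signals of 9.64, 10.31, 10.10 and 10.06 on LC in cows 1 to 4, and of 9.75, 10.23, 10.66 and 10.23 on HC. It was highest on the HC array of cow 3 and lowest on the LC array of cow 1, as were JUN, JUNB and ATF3, and HC minus LC was 0.19 (limma p of 0.381). SLC26A3, an anion exchanger, ran from 13.73 on the LC array of cow 1 to 14.42 on the HC array of cow 3. These 5 were picked by their r out of 6461 genes over only 8 arrays. Their highest and lowest arrays therefore follow from that choice, and they are given as a description.

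The further genes of the pathway were listed in 5 groups of 118 genes in all, of which 58 were on the array. The other immediate early and primary response genes were 25 of 40 listed, 23 of them above background on all 8 arrays. The MAP kinases, their activators and the factors that switch the early genes on were 17 of 29. The MAP kinase phosphatases and other brakes were 7 of 19, the MYC network 5 of 12 and the bZIP partners of AP-1 4 of 18. With limma, 1 of the 58 genes was called higher on HC and 0 lower, against 0.494% and 0.428% of all probes.

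**Figure D5:**
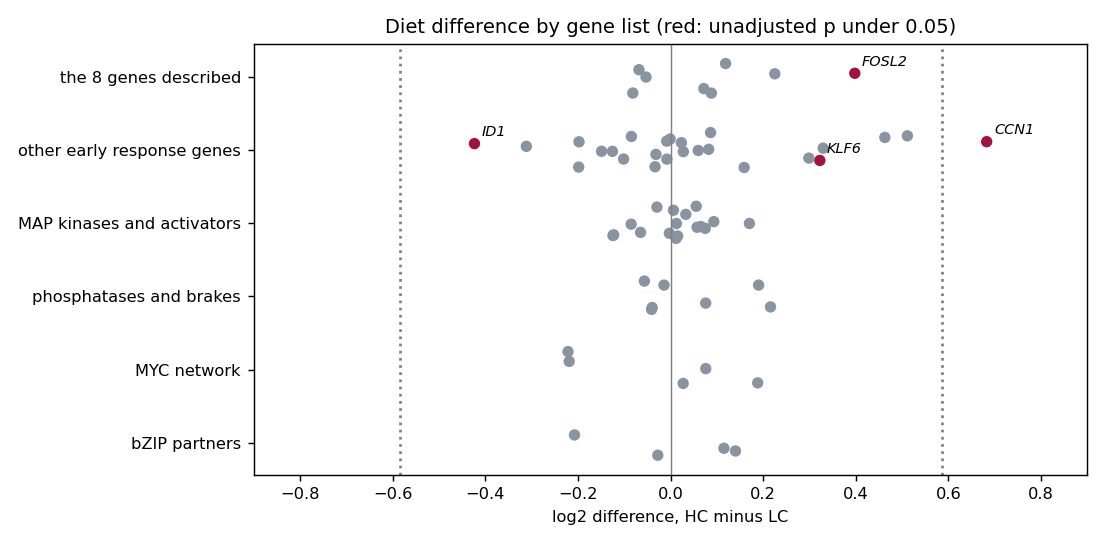
Difference of HC minus LC on the log2 scale (x axis) for the 8 genes and the 5 groups of related genes (rows, spread vertically for legibility), with 1 point per gene. Red points have an unadjusted p under 0.05 in limma, and dotted lines mark a fold of 1.5. CCN1 at 0.68 is the only point past a dotted line, and FOSL2, ID1 and KLF6 are red but within both lines.

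The gene called was CCN1, an early response gene that codes for a secreted matrix protein (CYR61). On LC its log2 signal was 7.49, 7.56, 8.69 and 7.92 in cows 1 to 4, and on HC it was 8.18, 8.94, 8.67 and 8.60. Cow 3 had nearly the same level on both diets, while the other 3 cows were higher on HC, and the groups overlapped through the LC array of cow 3. HC minus LC was 0.68 (SE 0.23), a fold with a 95% interval of 1.09 to 2.36, with a limma p of 0.0238 (adjusted p = 1.00, Benjamini-Hochberg) and p = 0.114 in the exact permutation test.

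The CCN1 call was not stable. Without LC cow 1, LC cow 2, LC cow 4, HC cow 2, HC cow 3 or HC cow 4 the limma p was 0.0608, 0.0514, 0.0641, 0.0649, 0.0613 and 0.0530, and the difference over all arrays left out in turn ran from 0.49 to 0.87. The difference was 1.11 within period 1 and 0.26 within period 2 (limma p of 0.462).

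Of the other early response genes, 3 of 25 passed 0.05 before adjustment in the diet comparison, against 3.65% of all probes, and the median difference over the 25 was -0.00. Beside CCN1 they were ID1, an inhibitor of basic helix-loop-helix factors, with HC minus LC of -0.42 (limma p of 0.0200), lower on HC in 3 of 4 cows, and KLF6, a Krüppel-like factor, with 0.32 (limma p of 0.0421), higher on HC in all 4 cows. Both were below a fold of 1.5, and they are named after their values were seen. The brightest genes of the list, FOSB, MCL1 and KLF4, had differences of 0.03, 0.09 and -0.01.

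FOSB, another FOS family subunit of AP-1, had a pair of probes that did not go together. The brighter had log2 signals of 13.86, 13.68, 14.93 and 13.70 on LC in cows 1 to 4 and of 14.00, 13.60, 14.78 and 13.91 on HC, with cow 3 above all other arrays on both diets (limma p of 0.00317 for cow). The second probe had 10.87, 11.07, 10.32 and 10.16 on LC and 10.68, 10.46, 10.43 and 10.66 on HC, where cow 3 was not above the rest (limma p of 0.149 for cow). Neither probe differed by diet, with log2 differences of 0.03 and -0.05. Of the 7 stromal markers, LUM, COL1A1, COL1A2 and COL3A1 had their highest cow mean in cow 3 (COL1A1 at 11.92, against 11.11 to 11.59 in the other cows), DCN and PDGFRA in cow 1, and VIM had its lowest in cow 3, at 12.36. The log2 of the summed level of the 7 stromal markers was 14.28 to 14.50 on LC and 14.29 to 14.57 on HC, and its part in the values of cow 3 was not tested.

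In the kinase cascade that leads to these genes, 0 of 17 genes were called for diet with limma, against 0.922% of all probes. An unadjusted p under 0.05 was reached by 0 of them, against 3.65% of all probes, so so few genes say little by these counts. The differences ran from -0.12 to 0.17 with a median of 0.01. Its brightest genes were MAP2K2, MAP2K1 and MAP2K3, kinases that switch on ERK (the first pair) and p38 (the last), with differences of -0.00, 0.06 and 0.01. Among the brakes, SPRY1, an inhibitor of growth factor signalling, had 0.22 (exact permutation p of 0.0857), and PPP2R1A and PPP2CA, the scaffold and catalytic subunits of phosphatase 2A, had 0.08 and -0.01. In the MYC network MXD3, MXI1 and MGA, which compete with MYC for MAX, had 0.19, 0.03 and 0.08. Of the bZIP partners NFE2L2, the regulator of the oxidative stress response, had 0.12, DDIT3 (CHOP), a stress-induced partner of C/EBP factors, 0.14, and JDP2, a repressor that pairs with JUN proteins, -0.03. In each of these 3 groups, limma gave 0 genes called for diet and 0 with an unadjusted p under 0.05, against the same shares of all probes.

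For period, 0 of the 58 related genes were called with limma, and 5 had an unadjusted p under 0.05, against 12.3% of all probes. They were RHOB (-0.36, limma p of 0.00902), NFIL3 (-0.58, limma p of 0.0182), MXD1 (0.33), GADD45B (-0.30) and NR4A1 (-0.23), named after their values were seen. For cows 1 and 2 against cows 3 and 4, 2 of the 58 were called, against 2.93% of all probes. SPRY4, a brake on growth factor signalling, was at 0.87 (limma p of 0.0302). PTGS2, the inducible cyclooxygenase, was at -0.84 (limma p of 0.0472, with 7 of 8 arrays above background). These p-values take the 2 arrays of a cow as independent, so they do not measure the spread between animals. The SPRY4 mean was 5.78 in cow 1, against 4.79, 4.35 and 4.48 in cows 2, 3 and 4. Both probes were dim, with intensities before normalization of 18.2 to 68.9 for SPRY4 and 6.92 to 32.6 for PTGS2. Duplicate spots on an array differed by up to 1.32 for SPRY4 and 0.58 for PTGS2 (log2). Neither call held with normexp or without moderation, and SPRY4 held and PTGS2 did not with 75th percentile scaling. Without cow 1 on HC or without cow 3 on HC neither was called, and without cow 4 on LC they gave way to FOSB and CCN1. SPRY4 was also not called without cow 1 or cow 3 on LC, nor PTGS2 without cow 2 on LC or cow 4 on HC.

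The summed levels of the markers of the other cell types of the papillae overlapped between the diets. A sum follows its brightest markers and can hide single ones. Of the 7 stromal markers, 5 were higher on HC and 2 lower, among these DCN, lower in 4 of 4 cows at -0.20 (limma p of 0.112). Of the 6 leukocyte markers, 5 were higher and 1 lower, with CD3E at 0.30 (limma p of 0.0759). The 5 include ITGAM, whose probe was not above background on any array. Over all 21475 probes, 10735 were higher on HC and 10740 lower. TP63 and ITGAM were above background on no array and are not in the sums. The log2 of the summed level was 18.45 to 19.00 on LC and 18.60 to 19.01 on HC for 3 epithelial markers, of 8 listed. For 5 leukocyte markers, of 7, it was 10.74 to 11.14 and 10.65 to 11.41. For the 5 smooth muscle markers it was 14.03 to 14.34 and 13.93 to 14.47, for KDR, the 1 endothelial marker of 4 on the array, 8.59 to 9.08 and 8.53 to 9.63, and for the 3 erythrocyte markers of 4, with ALAS2 above background on 2 arrays, 11.81 to 13.32 and 11.56 to 13.14. Their part in any of the differences above was not tested.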

How the data were processed

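RNA of rumen papillae from 4 cows, each on both diets, was measured on 8 single-colour Agilent bovine arrays (4 × 44 K). The authors deposited the scanner output of Feature Extraction 10.7.3.1, which holds a background-subtracted intensity per spot, and a table of log2 values that they had quantile-normalized in GeneSpring 11.0. The intensities were used here. Control and outlier spots were left out, and quantile normalization of the log2 intensities was done in R 4.3.3 (limma 3.58.1). Averaging the spots of each probe, mostly 2, gave 21475 probes. Probes were named through RefSeq accessions (8297 of 10176 matched), and the brightest probe stood for a gene. Positions and sequences are not given.

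The limma model held diet, period and the interaction, over all probes (4 residual and 2.26 prior degrees of freedom, prior SD 0.18). It held no term for cow, so its SE, intervals and p-values do not use the pairing, except where a cow term is named. A call was a fold of at least 1.5 with an unadjusted p under 0.05, and p-values were adjusted by Benjamini-Hochberg over all probes. Exact two-sided permutation tests over arrays used scipy 1.17.1, and tables and plots pandas 2.3.3 and matplotlib 3.10.9 in Python 3.11.15. The scripts were tested on simulated data. The members, the lists and the rules for named genes (all members, and of each related list the called genes and the 3 brightest) were chosen with earlier results of these data known.

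The labels pair the arrays by cow. The deviations of the 2 arrays of a cow from the diet means correlated with r = 0.285, 0.298, 0.467 and 0.113 over 16030 probes, against -0.237 to 0.185 between different cows. In the deposited table the columns of cows 1 and 2 followed the scanner array of the other of the pair on both diets, so the names of these cows are unsettled, which touches neither the diet comparison nor the pairing. With these columns set against the array they followed, 0 of the 64 values of the members in that table lay more than 0.3 from the scanner value. For normexp the median spot signal was used, since the scanner output used here has no mean signal. The 2 arrays of a cow are separate samples of 1 animal, and the number of arrays limits the precision. Alternatives were other normalizations, background correction, a filter on dim probes, cow as a block, other terms, leaving out each array, and values within period and diet.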

Additional observations from a re-analysis of the deposited data

Results flagged for a closer look

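In each diet group of 4 arrays, the gap from the highest or lowest array to the next was divided by the range of the group and set against Dixon's 95% critical value. Of 48 groups examined, over 24 genes, 4 passed, and chance gives about 1 in 20. For FOS on LC the ratio was 0.874, since cow 1 was at 10.23 and the other 3 cows at 11.09 to 11.21, and cow 1 was as low on HC. For ATF3 on HC it was 0.847, with cow 3 at 9.70 against 7.70 to 8.01. For FOSB on LC it was 0.852, with cow 3 at 14.93 against 13.68 to 13.86 for the brighter of its probes. For JDP2 on LC it was 0.859, with cow 4 at 7.52 against 8.12 to 8.22. For none of the 24 genes did the diet difference differ between the periods at an unadjusted p under 0.05 in limma.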

How the results depend on the processing

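The count of the 8 early response genes called for diet or for period was 0 under every alternative run, and the interaction had 0 to 1 (FOS) as arrays were left out and 0 otherwise. Another scaling, normexp and the deposited table left the count of genes whose groups did not overlap as it was, and moved the median SD of the 8 genes by less than 1.5 times. With cow as a replicate block FOSL2 had a difference of 0.40 (limma p of 0.0354), and with cow as a random block the limma p was 0.00569. The paired fits changed no call for diet or period among the 8 genes or the related genes. The random block took the limma p of DUSP1 from 0.118 to 0.0498, at a difference below the fold threshold. It used 1 correlation, 0.384, for every probe, while the F test of cow gave limma p-values of 0.924 for FOSL2 and 0.513 for DUSP1. Without both arrays of cow 3, chosen after seeing the data, FOSL2 had 0.55 (limma p of 0.00266), and without both of cow 1 it had 0.38 (limma p of 0.0650). DUSP1 ran from 0.13 to 0.32 as arrays were left out, with p from 0.0427 to 0.320.

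The count of related genes called for diet, 1 (CCN1), was 0 with normexp, without moderation and within period 2, 3 within period 1 (with BTG1 and PTGS2), 2 without both arrays of cow 3 (with KLF10), and 0 to 2 as arrays were left out. For period, 0 became 1 with 75th percentile scaling (NFIL3), 3 within LC (NFIL3, SPRY4 and PTGS2), 2 without both arrays of cow 3 (CCN2 and NR4A2), and 0 to 2 as arrays were left out. For cows 1 and 2 against cows 3 and 4, 2 became 1 with 75th percentile scaling, 0 with normexp and without moderation, and 0 to 3 as arrays were left out. Over all probes, 198 called for diet became 8 with normexp, 83 of 17195 with the filter on dim probes, 415 in the deposited table, 105 without moderation, 752 and 774 within periods 1 and 2, and 239 to 404 as arrays were left out.

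Of 344 values of the 8 genes under the alternatives, 0 became called and 45 changed sign. Within period 2 the diet difference turned for IER2 (0.051), JUNB (-0.013), JUN (-0.16), ATF3 (-0.38), NFE2L2 (-0.11), JDP2 (0.10), MAP2K2 (0.088), MGA (-0.28), FOSB (-0.52) and MCL1 (-0.12). Within period 1 it turned for FOS (0.47), MYC (0.066), MAP2K3 (-0.014), PPP2R1A (-0.012), PPP2CA (0.10), MXD3 (-0.038) and KLF4 (0.14). The period difference turned within LC for IER2 (-0.079), JUNB (0.087), FOS (0.41), MYC (0.11) and DUSP1 (0.021), and within HC for JUN (-0.15). With 75th percentile scaling IER2 had -0.0061 for period and MAP2K3 -0.0089 for diet, with normexp DUSP1 had 0.0090 for period and MGA -0.020 for diet, with the deposited table DUSP1 had 0.0033 for period, and with all probes of a gene averaged FOSB had -0.0095 for diet. Without both arrays of cow 3, JUNB (0.029), MYC (0.059) and DUSP1 (0.099) turned for period and ATF3 (-0.41), JDP2 (0.15) and MAP2K3 (-0.056) for diet. Without both arrays of cow 1, MYC (0.011) turned for period and ATF3 (-0.40), MAP2K2 (0.0066), MAP2K3 (-0.089), MXI1 (-0.038), FOSB (-0.026) and KLF4 (0.0096) for diet.

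As each array was left out in turn, the diet difference changed sign in ATF3 (-0.47 to 0.62), FOS (-0.33 to 0.16), IER2 (-0.15 to 0.047), MYC (-0.16 to 0.020), NFE2L2 (-0.046 to 0.28), JDP2 (-0.20 to 0.15), MAP2K1 (-0.0086 to 0.12), MAP2K2 (-0.065 to 0.060), MAP2K3 (-0.11 to 0.13), PPP2CA (-0.061 to 0.033), MXI1 (-0.065 to 0.12), MGA (-0.098 to 0.25), FOSB (-0.28 to 0.34) and KLF4 (-0.11 to 0.094). The period difference did so in ATF3 (-1.08 to 0.010), FOS (-0.39 to 0.10), IER2 (-0.075 to 0.12), JUNB (-0.10 to 0.071), MYC (-0.11 to 0.064) and DUSP1 (-0.093 to 0.089). The cause was not tested in any of these.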
